A study of Mus musculus with 18 samples.

Results

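The clustered protocadherin genes, 58 of the 27997 mouse genes in the expression table, were followed across cultured neural stem cells (NSCs) and astrocytes of 3 lines. Members were taken by symbol alone: every gene named Pcdha, Pcdhb or Pcdhg with an isoform number, or with the letter c of the C-type isoforms, was included, whatever its level. The alpha cluster gave 14 members, the beta cluster 22 and the gamma cluster 22. RNA was sequenced from 18 libraries in 6 groups of 3.

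Clustered protocadherins are cadherin-like proteins of the cell surface that bind the same isoform on a neighbouring cell. In the alpha and gamma clusters each isoform has its own variable exon with its own promoter, which is spliced to a set of constant exons shared by the whole cluster, whereas the beta genes have single exons and no constant part. In neurons, the alternate isoforms are chosen promoter by promoter through CTCF, cohesin and DNA methylation, so that single cells carry different mixtures, while the C-type isoforms are used more widely. Mixtures of isoforms let the branches of a neuron tell self from non-self, and gamma isoforms take part in contacts between neurons and astrocytes.

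The spinal cord lines came from cells traced by DNGR-1 (Clec9a) expression history, in which Cre under that gene's control had switched on a reporter. One carried tdTomato (labelled DNGR-1 +/- Tom+/-) and the other EYFP (labelled DNGR-1 +/- EYFP+/-). The hippocampal line came from GlastCre Huwe fl ROSA LSL EYFP mice and was labelled DNGR-1+/+, so it also carried a floxed allele of Huwe1, as the methods name the gene, and a reporter allele. Whether Cre had been active in it was not stated. All 3 lines were grown as adherent NSCs in medium with bFGF, EGF, heparin and a supplement, and were collected after 4 days. To turn NSCs into astrocytes this medium was replaced by a basal medium with 20 ng/ml of BMP4, and cells were collected after 6 days. The methods name no bFGF, EGF or supplement in the astrocyte medium. The 3 replicates of a group were 3 passages (10 to 12) of 1 line, so the p-values given here measure the spread between cultures of 1 line and not between animals. With 1 line per genotype, differences between lines cannot be told apart from differences of reporter, allele, tissue of origin or the cells that happened to found the line. How many cells founded a line was not stated in the sources used here. In bulk RNA, fewer cells expressing an isoform and less of its RNA per cell cannot be told apart.

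The astrocyte list, summed on the linear scale, was at 15.06 to 16.23 in the NSC libraries and at 17.24 to 17.98 in the astrocyte libraries on the log2 scale. Gfap, an intermediate filament of astrocytes, was at 8.96 to 9.44 in the NSC libraries and at 14.69 to 16.66 in the astrocyte libraries on the deposited log2 scale. Mki67, a gene of dividing cells, was at 12.75 to 13.07 and 6.42 to 7.15. Not every marker followed the labels. Aldh1l1, an enzyme of folate metabolism in astrocytes, had the same mean in hippocampal NSCs and astrocytes (10.28) and means of 7.17 and 7.0 in the EYFP line. The NSC list summed to 16.30 to 16.53 in NSCs and 16.31 to 17.83 in astrocytes: Sox2 and Vim were higher in the astrocytes of every line, and the mean of Nes went from 13.86 to 13.64 in the hippocampal line and from 14.27 to 11.09 in the tdTomato line. Cell division, age in culture, BMP4 and the loss of bFGF, EGF and supplement from the medium all moved with the fate. Their parts in the changes between fates therefore cannot be told apart. The marker list of oligodendrocytes, summed on the linear scale, moved with the fate as well, from 11.30 to 12.05 up to 12.74 to 13.37, with the myelin genes Mog and Mag near the floor of the table. The ependymal list moved from 9.45 to 10.50 up to 11.01 to 12.32. The neuronal list summed to 14.47 to 14.63 in NSCs and 13.92 to 14.36 in astrocytes, nearly all of it Map2 (14.44 to 14.60 and 13.87 to 14.32). Other genes of that list went in both directions. The means of Rbfox3, Tubb3 and Dcx were higher in the astrocytes of all 3 lines, as for Rbfox3, a splicing factor of neurons (4.54 to 5.07 and 5.41 to 7.44). The mean of Syp, of synaptic vesicles, went from 8.15 to 8.35 in the tdTomato line, from 7.61 to 8.01 in the EYFP line and from 8.09 to 7.46 in the hippocampal line, and Stmn2 lay between -1.43 and -0.05 over all libraries. The part of these other markers in the results was not tested. Microglial markers were at 2.73 to 6.39 in NSCs and 3.75 to 5.88 in astrocytes, with Aif1 and Ptprc near the floor. The tdTomato line was highest in the microglial list through Tmem119 alone (mean of 6.15 in its NSCs, 2.37 in EYFP and 1.73 in hippocampal NSCs). Fibroblast markers (4.63 to 5.25 and 4.23 to 5.94) and endothelial markers (3.49 to 4.10 and 2.40 to 3.55) were low.

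All members lie on the plus strand of chromosome 18 (GRCm38). The alpha cluster spanned positions 36930184 to 37187661, the beta cluster 37264938 to 37524479 and the gamma cluster 37661793 to 37841873. By the gene models, all 14 alpha members shared 2860 bases in 3 blocks of constant exons, and all 22 gamma members shared 2116 bases in 3 blocks. Only reads that touch a variable exon can tell such isoforms apart. The share of 75-base windows found in no other gene was 10.8% to 57.3% for alpha members, 36.2% to 68.9% for gamma members and 91.0% to 100% for beta members. The values of alpha and gamma members therefore rest partly on the authors' estimated division of shared reads, and the values of beta members hardly at all. Pcdha4 had the lowest share, at 10.8%, and 40.0% of its windows also occur in genes outside the family. Pcdhgb8 is annotated as a polymorphic pseudogene.

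A pair of Ensembl genes carried the symbol Pcdha11. ENSMUSG00000007440 starts at 37005203, beside the start that RefSeq gives for Pcdha10 (37005320), and ENSMUSG00000102206 starts at 37010712, beside the RefSeq start of Pcdha11 (37010858). They are named by identifier here.

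**Figure D1:**
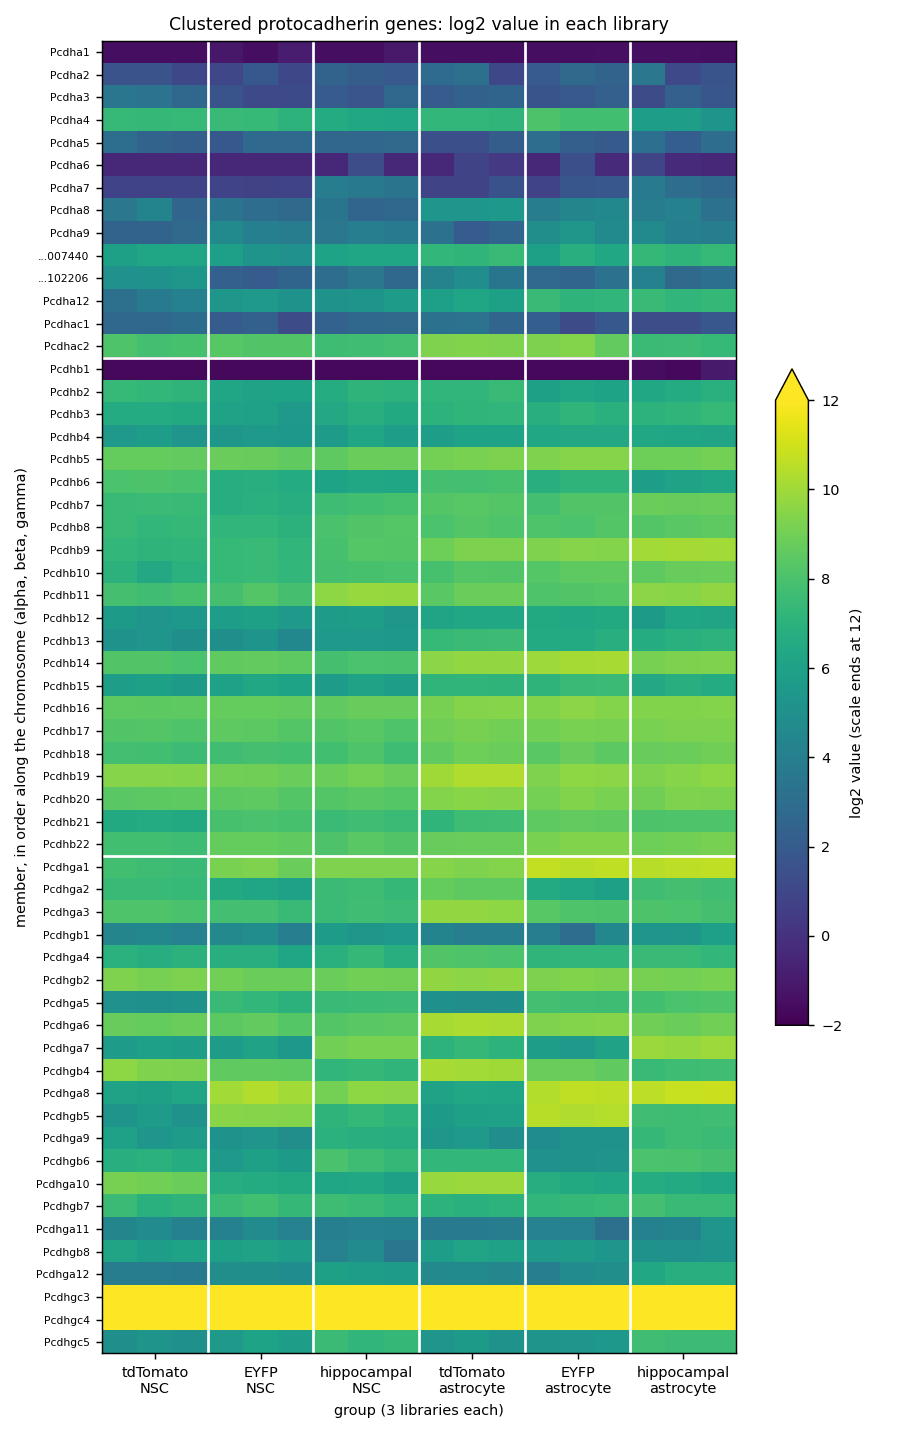
Heatmap of the deposited log2 value of each of the 58 members (rows, in order along the chromosome, white lines between the clusters) in each of the 18 libraries (columns, 3 per group). The colour scale ends at 12, which Pcdhgc3 and Pcdhgc4 exceed in every library. Labels that open with dots are the shortened identifiers ENSMUSG00000007440 and ENSMUSG00000102206. Pcdha1 and Pcdhb1 are dark throughout, and rows such as Pcdhga8 change colour from line to line.

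Of the 58 members, 50 had a mean log2 value of at least 3.32 (a linear value of 10) over all 18 libraries and were tested: 7 of 14 alpha, 21 of 22 beta and 22 of 22 gamma members. The filter used the mean of all libraries, not of a group. Still, 2 alternate alpha isoforms passed it only through 1 line: without the tdTomato line the mean of ENSMUSG00000102206 was 2.91, and without the EYFP line that of Pcdha9 was 3.29. The 8 members below it were Pcdha1, Pcdha2, Pcdha3, Pcdha5, Pcdha6, Pcdha7, Pcdhac1 and Pcdhb1. Pcdhb1 lay between -1.71 and -0.99 and Pcdha1 between -1.48 and -0.93, which is near the lowest values of the table. The largest range of line means among the 8 was that of Pcdha7, at 2.87 in NSCs. It was at 3.96, 3.66 and 3.36 in hippocampal NSCs, and at 0.78 to 0.84 in the 6 traced NSC libraries. Those traced values hardly varied, with an SD of 0.01 in the tdTomato and 0.02 in the EYFP line. Without a filter, the traced libraries were lower by 2.85 on the log2 scale in NSCs (limma, adjusted p = 4.2e-06) and by 1.87 in astrocytes (adjusted p = 0.0023). Pcdha3 was at 2.72 to 3.47 in tdTomato NSCs and 1.11 to 1.63 in EYFP NSCs, a difference of 1.88 without a filter (adjusted p = 0.019). Pcdha7 and Pcdha3 were chosen after their values were seen, so these p-values do not stand apart from the choice. Pcdhac1 was at 2.57 to 3.31 in tdTomato astrocytes, 1.27 to 2.20 in EYFP and 1.31 to 1.81 in hippocampal astrocytes. The transform behind the deposited values is not named, and whether it narrows differences at levels this low was not tested.

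Per kilobase of exon, the gamma cluster was far above the others. Its members summed to 12.88 ± 0.01 (SD, n = 3) on the log2 scale in tdTomato NSCs, to 13.19 ± 0.01 in EYFP NSCs and to 13.13 ± 0.01 in hippocampal NSCs. The beta sums in the same groups were 9.99 ± 0.04, 9.98 ± 0.10 and 10.30 ± 0.12. The alpha sums were 6.65 ± 0.05, 6.71 ± 0.15 and 6.40 ± 0.02. The order gamma, beta, alpha held in all 6 groups without overlap of the libraries.

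A single isoform made up most of the gamma level. Pcdhgc3, a C-type isoform, held 72.4% ± 0.65 (SD, n = 3) of the summed gamma level per kilobase in tdTomato NSCs, 72.6% ± 0.94 in those of the EYFP line and 71.8% ± 0.30 in those of the hippocampal line. Its share in astrocytes was 63.8% ± 0.87, 63.6% ± 0.43 and 60.2% ± 0.84, below every NSC library. Pcdhgc4, the next C-type isoform along the chromosome, held 16.8% to 19.9% in the 6 group means. Pcdhgc5 held 0.0587% to 0.344%. The value of Pcdhgc3 exceeded that of Pcdhgc4 by 1.52 to 2.05 on the log2 scale over all 18 libraries. Pcdhgc4 has a short transcript model of 2272 bases, of which 156 lie outside the constant exons, and how reads from the constant exons were assigned to it was not tested. Since all gamma members share those exons, these shares depend on the authors' division of reads.

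Among the alpha members, the 3 highest per kilobase over all libraries were Pcdhac2, a C-type isoform, Pcdha4 and ENSMUSG00000007440. Pcdhac2 led in all 6 group means, at 4.96 to 6.75 on the log2 scale per kilobase. In hippocampal astrocytes the lead was small: Pcdhac2 stood at 4.96, Pcdha12 at 4.92 and ENSMUSG00000007440 at 4.87. The other alpha C-type isoform, Pcdhac1, was among the members below the filter, at 1.24 to 3.31 over the libraries. Among the beta genes, Pcdhb5, Pcdhb20 and Pcdhb9 were the highest per kilobase over all libraries, with means of 9.74%, 8.95% and 9.36% of the beta level. Pcdhb11 led in hippocampal NSCs (7.61 per kilobase) and Pcdhb9 in hippocampal astrocytes (8.46). The beta level was thus spread over many genes, unlike the gamma level.

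Most members rose when NSCs were turned into astrocytes. With the line as a covariate over all 18 libraries, 37 of the 50 members tested rose and 2 fell (limma with a trend in the variance, Benjamini-Hochberg adjusted p under 0.05 over 14369 genes), while 41.3% of all genes tested rose and 41.1% fell. The median difference of the members was 0.63 on the log2 scale, and that of all genes tested was 0.00. By at least 1 on that scale, 10 members rose and 0 fell, where 22.9% of all genes tested changed that much in either direction. At an unadjusted p under 0.05 the counts were the same, 37 and 2. By cluster, 5 of 7 alpha, 19 of 21 beta and 13 of 22 gamma members rose.

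The beta genes, which share few sequences, gave the most even picture. In the tdTomato and the EYFP line 19 of 21 rose, where 39.2% and 37.0% of all genes tested did, and in the hippocampal line 14 rose and 1 fell, where 38.3% of all genes rose and 38.3% fell. The median beta difference over all lines was 0.76. Pcdhb9 was at 7.29, 7.12 and 7.17 in tdTomato NSCs and at 8.92, 9.22 and 9.25 in tdTomato astrocytes. In the EYFP line it was at 7.39, 7.50 and 7.20 and then at 9.32, 9.47 and 9.41. In the hippocampal line it was at 7.91, 8.33 and 8.28 and then at 10.04, 10.11 and 10.05. No astrocyte library overlapped with an NSC library, and the difference over all lines was 1.96 ± 0.06 (SE, adjusted p = 6.9e-15, higher in the astrocytes of 3 of 3 lines).

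Pcdhb13 was the next largest beta rise, 1.81 ± 0.13 (adjusted p = 7.1e-10). Its values were 4.55 to 5.59 in the 9 NSC libraries and 6.55 to 7.59 in the 9 astrocyte libraries. Pcdhb14 rose by 1.44 ± 0.05 (adjusted p = 1.9e-14) and Pcdhb15 by 1.10 ± 0.10 (adjusted p = 1.1e-08), each without overlap between the fates. Of the genes highest per kilobase, Pcdhb20 rose by 0.88 ± 0.06 (adjusted p = 1.7e-10) and Pcdhb5 by 0.46 ± 0.07 (adjusted p = 5.2e-06). The 2 beta genes tested that did not pass were Pcdhb2, with a difference of -0.11 ± 0.09 (adjusted p = 0.23), and Pcdhb6, with -0.02 ± 0.08 (adjusted p = 0.82). Both were named after their values were seen. The summed beta level per kilobase was higher in astrocytes by 0.90 on the log2 scale in the tdTomato line, 0.90 in the EYFP line and 0.71 in the hippocampal line.

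In the alpha cluster, Pcdha12 rose most, and its rise was the largest of all 50 members. It was at 3.16, 3.75 and 4.17 in tdTomato NSCs and at 5.92, 6.31 and 5.96 in tdTomato astrocytes. In the EYFP line it went from 5.39, 5.53 and 5.17 to 7.47, 7.12 and 7.20, and in the hippocampal line from 5.14, 5.27 and 5.72 to 7.46, 7.21 and 7.33. All 9 astrocyte libraries lay above all 9 NSC libraries, and the difference was 2.08 ± 0.13 (adjusted p = 7e-11). ENSMUSG00000007440 rose by 1.08 ± 0.11 (adjusted p = 1e-07). Pcdhac2 rose by 0.65 ± 0.17 over all lines (adjusted p = 0.0023), although it did so in the traced lines and not in the hippocampal line, as described below. Pcdha4 did not pass over all lines (-0.13 ± 0.16, adjusted p = 0.47).

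In the gamma cluster, of the 19 gamma-A and gamma-B isoforms, 13 rose and 0 fell at the adjusted or at an unadjusted threshold of 0.05 (limma), namely 10 of 12 gamma-A and 3 of 7 gamma-B members, the latter near the 41.3% of all genes. By line, 12 of the 19 rose and 1 fell in the tdTomato line (39.2% and 39.6% of all genes tested). In the EYFP line 8 rose, near the 37.0% of all genes, and 2 fell (37.5%). In the hippocampal line 14 rose and 0 fell (38.3% each, limma, 0 at an unadjusted p under 0.05 as well). The medians of their differences were 0.45, 0.08 and 0.43. Of the 4 C-type isoforms tested in both clusters, Pcdhgc3 and Pcdhgc4 fell, Pcdhac2 rose and Pcdhgc5 did not pass (0.03 ± 0.12, adjusted p = 0.80). Pcdhgc3 was at 14.87, 14.86 and 14.88 in tdTomato, 15.19, 15.17 and 15.21 in EYFP and 15.10, 15.10 and 15.12 in hippocampal NSCs. In astrocytes all 9 libraries were lower, at 14.58 to 14.76, and the difference was -0.41 ± 0.04 (adjusted p = 4.2e-08). Pcdhgc4 was at 12.86 to 13.17 in NSCs and 12.63 to 13.11 in astrocytes, and with overlap between the fates it fell by 0.19 ± 0.04 on the log2 scale (adjusted p = 0.00051). Within lines it passed in the tdTomato line (-0.16, adjusted p = 0.023) and in the EYFP line (-0.32, adjusted p = 0.0015), and not in the hippocampal line (-0.09, adjusted p = 0.11). The tdTomato call was lost under several alternatives, among them median centring of the libraries (-0.08, adjusted p = 0.18).

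Among the alternate gamma isoforms, Pcdhga6 had no overlap between the fates. It was at 8.25 to 8.79 in NSCs and 8.88 to 10.28 in astrocytes, a rise of 0.99 ± 0.10 (adjusted p = 5.5e-08). Pcdhga1, the alternate gamma isoform with the highest mean log2 value per kilobase over all libraries, though it led in no single group and its mean share was 13.1% against 15.6% for Pcdhga8, rose by 1.52 ± 0.07 (adjusted p = 8.1e-13). Its NSC and astrocyte libraries were apart within each line and overlapped across lines, because the tdTomato line was low in both fates. The summed gamma-A and gamma-B level per kilobase was higher in astrocytes by 0.94, 0.63 and 0.76 in the tdTomato, EYFP and hippocampal lines. The sum of the whole gamma cluster was lower by 0.06, 0.32 and 0.23 on the log2 scale, since it is mostly Pcdhgc3 and Pcdhgc4.

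**Figure D2:**
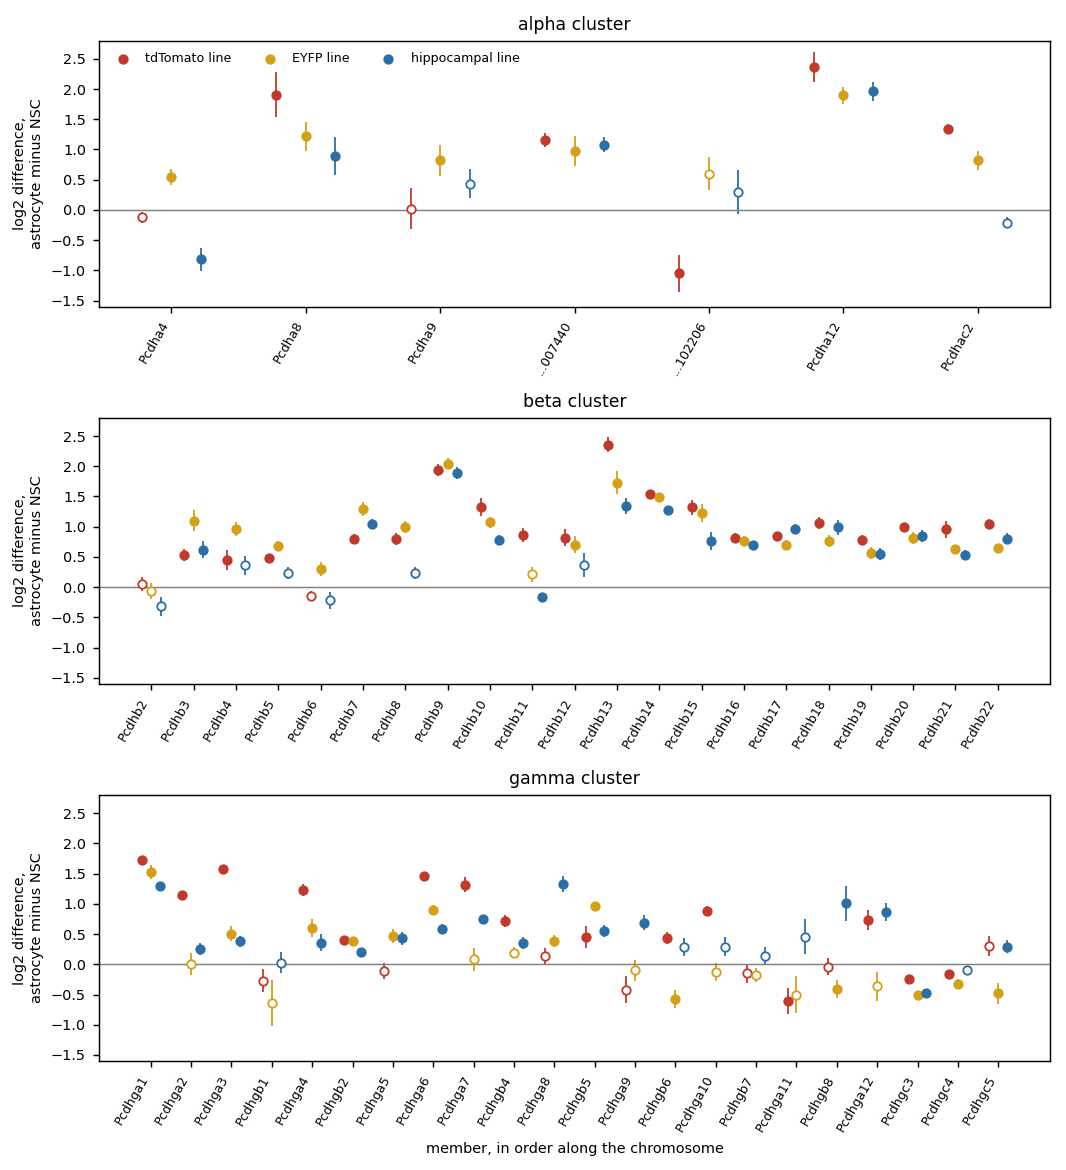
Difference between astrocytes and NSCs on the log2 scale for the 50 members tested, in order along the chromosome, in the tdTomato (red), EYFP (yellow) and hippocampal (blue) lines. Points are limma estimates from 3 against 3 libraries with bars of 1 standard error, and filled points have an adjusted p under 0.05. Most beta points lie above 0 in all lines, with Pcdhb9 near 1.96, whereas Pcdhgc3 lies below 0 in each line. Labels that open with dots are the shortened identifiers ENSMUSG00000007440 and ENSMUSG00000102206.

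Taken line by line, 35 members rose and 4 fell in the tdTomato line (39.2% and 39.6% of all genes tested), 33 rose and 5 fell in the EYFP line (37.0% and 37.5%), and 32 rose and 3 fell in the hippocampal line (38.3% and 38.3%). Pcdha12, Pcdhb9 and Pcdhb13 were the 3 largest rises without overlap in each line. Pcdhb13 rose by 2.36 ± 0.13 (adjusted p = 1.8e-07) in the tdTomato, 1.73 ± 0.19 (adjusted p = 1.7e-05) in the EYFP and 1.34 ± 0.13 (adjusted p = 9.7e-06) in the hippocampal line. Pcdhgc3 fell in all 3, by 0.25, 0.51 and 0.48 on the log2 scale (adjusted p = 0.0011, 6.3e-05 and 1.1e-05).

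The fall of Pcdhgc4 passed in the tdTomato and the EYFP line, as given above, and each other fall passed in 1 line. In the tdTomato line, ENSMUSG00000102206 went from 5.10, 5.17 and 5.43 to 4.26, 4.85 and 3.45, a difference of -1.05 ± 0.31 (adjusted p = 0.012), and the call was lost without a filter on low values (adjusted p = 0.077). Pcdhga11 was lower in the same line (-0.61 ± 0.21, adjusted p = 0.022), and this call was lost without NSC replicate 2 (adjusted p = 0.10) or without astrocyte replicate 2 (adjusted p = 0.058). In the EYFP line, Pcdhgb6 went from 5.60, 5.94 and 5.65 to 5.07, 5.12 and 5.26 (-0.58 ± 0.15, adjusted p = 0.006). Pcdhgb8 was lower there by 0.41 ± 0.15 on the log2 scale (adjusted p = 0.031), and the call was lost without NSC replicate 1 or 2 or astrocyte replicate 1 or 3 (adjusted p of up to 0.10). Pcdhgc5 was also lower there (-0.48 ± 0.17, adjusted p = 0.028), a call lost without NSC replicate 2 or 3 or astrocyte replicate 1 or 2 (adjusted p = 0.11, 0.058, 0.075 and 0.069). In the hippocampal line the same isoform was higher in astrocytes (0.29 ± 0.11, adjusted p = 0.036), and this call was lost when any library other than NSC replicate 1 was left out (adjusted p of 0.052 to 0.13). In that line Pcdha4 went from 6.64, 6.41 and 6.21 to 5.78, 5.81 and 5.22 (-0.82 ± 0.19, adjusted p = 0.0029). The beta gene that fell there was Pcdhb11 (-0.17 ± 0.07, adjusted p = 0.046), a call lost without NSC replicate 2 or 3 or astrocyte replicate 1 or 2 (adjusted p of 0.097 to 0.15). Pcdhac1, below the filter, was lower in hippocampal astrocytes in the test without a filter (-1.17, adjusted p = 0.0082).

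The lines themselves also differed in these genes. Between the tdTomato and EYFP NSCs, both traced from spinal cord, 15 of the 50 members were higher in the tdTomato line and 15 lower, where 17.3% and 14.9% of all genes tested were. By at least 1 on the log2 scale, 14 members differed, against 2.60% of all genes tested. The median absolute difference was 0.41 for the members and 0.15 for all genes tested. In astrocytes of the same lines, 16 members were higher and 10 lower (5.32% and 5.56% of all genes tested), and 15 differed by at least 1 (1.77%), with median absolute differences of 0.47 and 0.10. The members that differed by at least 1 in astrocytes were 10 of 19 gamma-A and gamma-B, 3 of 6 alternate alpha, 2 of 21 beta and 0 of 4 C-type isoforms. Without the 2 isoforms that passed the filter through 1 line, 12 of 48 members differed by at least 1 in NSCs and 14 in astrocytes, and of the alternate alpha isoforms 1 and 2 of 4. No C-type isoform passed at an unadjusted p under 0.05 in that comparison (limma), though all 4 passed in NSCs, with differences of -0.77 to -0.28 between the tdTomato and the EYFP line. The call for Pcdhac2 in NSCs (-0.31, adjusted p = 0.036) was lost without tdTomato replicate 2 or 3 or EYFP replicate 1 or 2 (adjusted p of 0.060 to 0.13).

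**Figure D3:**
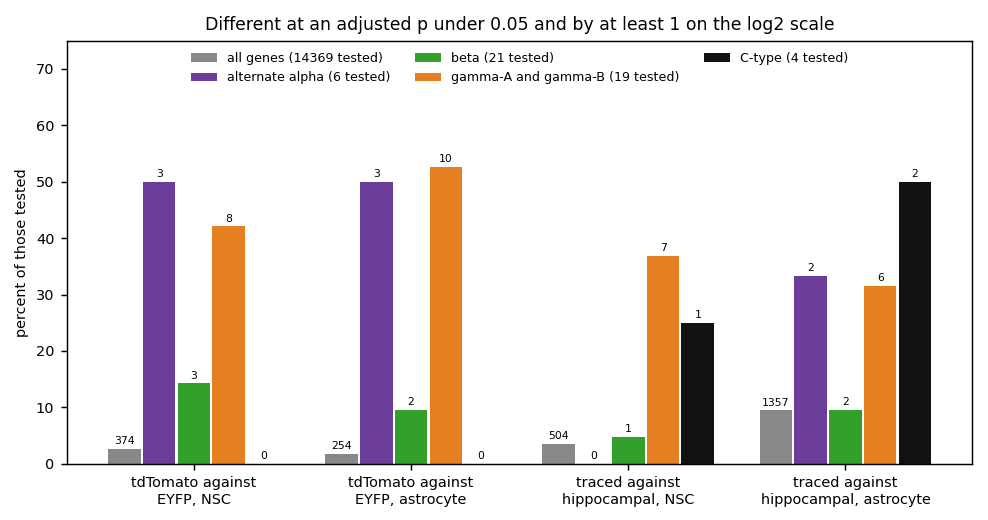
Percent of the genes tested that differed between lines at an adjusted p under 0.05 and by at least 1 on the log2 scale, for all genes (grey) and for the alternate alpha (violet), beta (green), alternate gamma (orange) and C-type (black) members. Numbers above the bars are counts of genes. Between the tdTomato and EYFP lines 8 of 19 alternate gamma isoforms differed in NSCs and 10 in astrocytes, against 2.60% and 1.77% of all genes. The alternate alpha bars there count 3 of 6, which is 1 and 2 of 4 without the isoforms that passed the filter through 1 line.

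The differences were in single isoforms and large. Pcdhga8 was at 6.04, 5.97 and 6.30 in tdTomato NSCs and at 10.07, 10.41 and 10.05 in EYFP NSCs. In astrocytes it was at 6.07, 6.33 and 6.29 and at 10.41, 10.66 and 10.60. The hippocampal libraries (9.10, 9.61 and 9.59, then 10.60, 10.80 and 10.89) sat near the EYFP line, so the tdTomato line alone was low. The difference of tdTomato from EYFP was -4.07 ± 0.12 in NSCs (adjusted p = 5.4e-07) and -4.33 ± 0.10 in astrocytes (adjusted p = 3.8e-08).

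Pcdhgb5, its neighbour along the chromosome, was at 5.24, 5.73 and 5.21 in tdTomato, 9.52, 9.48 and 9.38 in EYFP and 7.10, 7.31 and 7.04 in hippocampal NSCs. The lines thus took 3 separate levels, and in astrocytes they kept that order (5.61 to 6.00, 10.34 to 10.51 and 7.67 to 7.72). The tdTomato line was lower than the EYFP line by 4.07 ± 0.14 on the log2 scale in NSCs (adjusted p = 1.5e-06) and by 4.59 ± 0.11 in astrocytes (adjusted p = 5.2e-08). Pcdhga5 was lower by 2.16 ± 0.13 (adjusted p = 3.9e-05) and by 2.74 ± 0.11 (adjusted p = 2.3e-06).

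Other isoforms were higher in the tdTomato than in the EYFP line. Pcdhga10 was at 9.15, 9.0 and 8.87 in tdTomato, 6.74, 6.62 and 6.50 in EYFP and 6.30, 6.38 and 5.93 in hippocampal NSCs. In tdTomato astrocytes it was at 9.86 to 9.92, above all other astrocytes (6.24 to 6.73). The difference from the EYFP line was 2.39 ± 0.10 in NSCs (adjusted p = 4.4e-06) and 3.39 ± 0.12 in astrocytes (adjusted p = 6.7e-07). ENSMUSG00000102206 was at 5.10, 5.17 and 5.43 in tdTomato NSCs and 2.29, 2.06 and 2.51 in EYFP NSCs. As it passed the filter only through the tdTomato line, the test without a filter is given, in which the difference was 2.95 (limma, adjusted p = 0.0028). In astrocytes it was 1.30 and did not pass (adjusted p = 0.20). Pcdhb6 was the beta gene furthest above the EYFP line in NSCs (1.31 ± 0.08, adjusted p = 3.9e-05). In astrocytes, Pcdhga2 was higher in the tdTomato line by 2.32 ± 0.14 (adjusted p = 3.5e-05) and Pcdhgb6 by 2.11 ± 0.11 (adjusted p = 1.4e-05). The hippocampal line lay above both for Pcdhgb6, with means of 7.66 in NSCs and 7.95 in astrocytes against 6.82 and 7.26 in the tdTomato line.

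**Figure D4:**
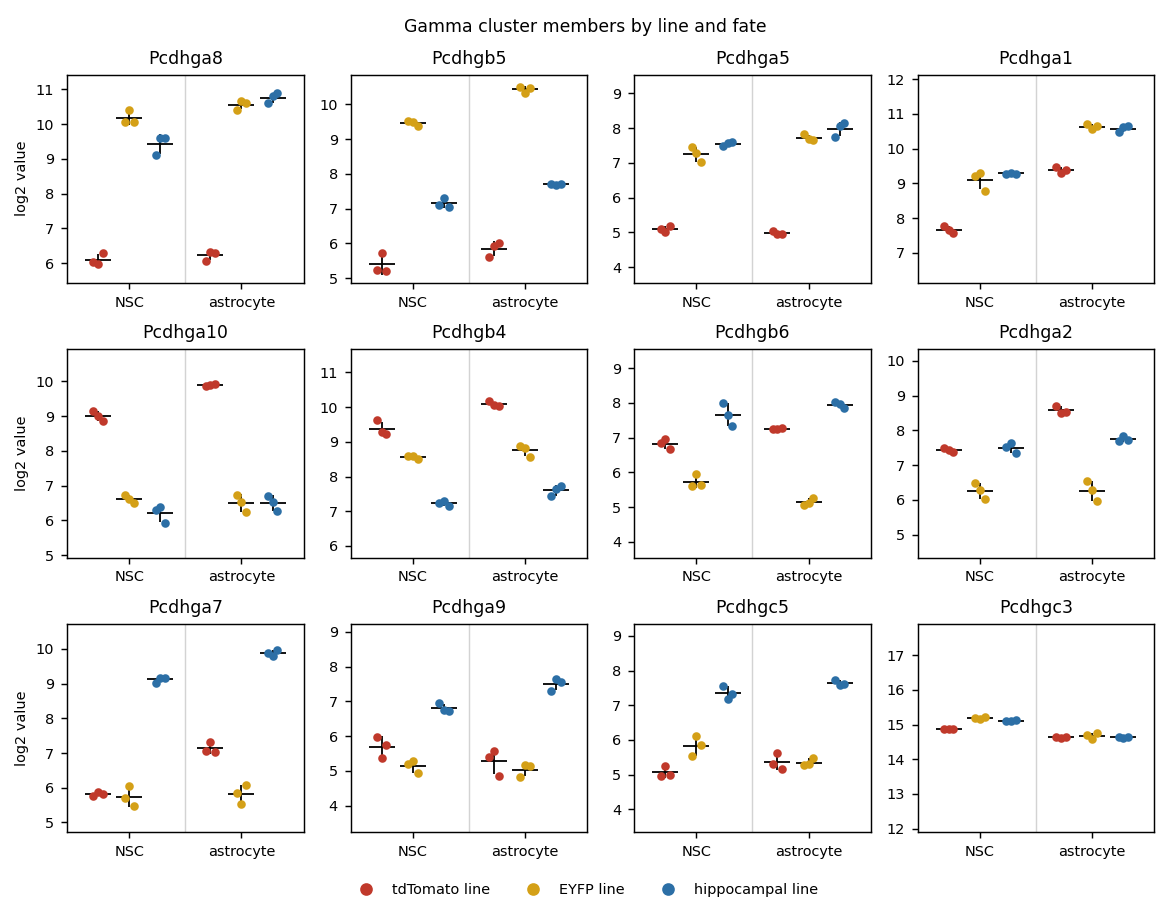
Deposited log2 value of 12 gamma members in each library of the tdTomato (red), EYFP (yellow) and hippocampal (blue) lines, NSCs left and astrocytes right. Bars are means with 1 SD (n = 3), and each panel spans the same height of 6 log2 units with its own offset. The tdTomato line is low for Pcdhga8 and Pcdhgb5 and high for Pcdhga10, the hippocampal line is high for Pcdhga7, and the lines of Pcdhgc3 lie close together.

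Against the hippocampal line, the traced lines were compared 6 libraries with 3, so that differences between the traced lines counted as spread. In NSCs, 4 members were higher in the traced lines and 10 lower (10.4% and 8.45% of all genes tested), and 9 showed a log2 difference of at least 1 (3.51%). A model of all 6 groups, in which the difference between the traced lines is not spread, called 10 higher and 20 lower, and 17.6% and 15.2% of all genes tested. In astrocytes, 11 were higher and 14 lower (24.3% and 27.5%), and 12 differed by at least 1 (9.44%). The median absolute difference of the members was 0.40 in NSCs and 0.51 in astrocytes, and that of all genes tested was 0.12 and 0.23.

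Pcdhga7 set the hippocampal line apart. It was at 9.03, 9.17 and 9.17 in hippocampal NSCs and at 5.47 to 6.05 in the 6 traced NSC libraries, a difference of -3.34 ± 0.12 (adjusted p = 4.9e-08). In astrocytes the hippocampal libraries were at 9.87, 9.78 and 9.96, the tdTomato libraries at 7.06, 7.33 and 7.04 and the EYFP libraries at 5.84, 5.54 and 6.08 (-3.39 ± 0.38, adjusted p = 3.4e-05). The C-type isoform Pcdhgc5 was at 7.56, 7.19 and 7.32 in hippocampal NSCs and 4.96 to 6.12 in traced NSCs (-1.90 ± 0.26, adjusted p = 0.00065), and the difference in astrocytes was -2.29 ± 0.12 (adjusted p = 1.5e-07). Pcdhb11 was the beta gene with the largest difference in NSCs (9.63 to 9.83 against 7.69 to 8.27, -1.84 ± 0.11, adjusted p = 2.4e-06). Pcdhga9 was lower in traced astrocytes by 2.34 ± 0.18 on the log2 scale (adjusted p = 2.4e-06).

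Other members were higher in the traced lines. Pcdhgb4 was at 9.22 to 9.62 in tdTomato, 8.50 to 8.60 in EYFP and 7.16 to 7.31 in hippocampal NSCs (1.74 ± 0.24, adjusted p = 0.00077), and by 1.83 ± 0.37 higher in traced astrocytes (adjusted p = 0.002). Pcdhgb8 was higher by 1.85 ± 0.23 in traced NSCs (adjusted p = 0.00044). Pcdha4 was higher by 0.91 ± 0.12 in NSCs (adjusted p = 0.00049) and by 1.95 ± 0.22 in astrocytes (adjusted p = 3.8e-05). Pcdhac2 was higher by 1.68 ± 0.14 in traced astrocytes (adjusted p = 5.5e-06). In NSCs its difference was 0.39 ± 0.12 (adjusted p = 0.040), a call lost under 7 of the 9 settings that left out 1 library, with adjusted p of 0.052 to 0.14.

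Over all 3 lines, the range of the line means was at least 2 on the log2 scale for 8 of the 50 members in NSCs (2.03% of all genes tested) and for 13 in astrocytes (3.67%). Without the 2 isoforms that passed the filter through 1 line, the counts were 7 and 12 of 48. Of the 19 alternate gamma isoforms, 6 in NSCs and 10 in astrocytes reached it, and of the 21 beta genes 0 in either fate. The median range was 1.68 and 2.14 for alternate gamma, 0.63 and 0.57 for beta, and 0.24 and 0.32 for all genes tested. These are counts of values, with no test of the range.

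The make-up of the alternate gamma level differed from line to line. Per kilobase, Pcdhga8 gave 2.02% of the summed gamma-A and gamma-B level in tdTomato NSCs, 26.7% in EYFP NSCs and 16.8% in hippocampal NSCs. Pcdhga10 gave 15%, 2.27% and 1.79% in the same order. Pcdhgb5 gave 0.879%, 11.4% and 2.41%, Pcdhga7 gave 1.51%, 1.12% and 12.2%, and Pcdhgb4 gave 15.8%, 7.10% and 2.96%. In astrocytes the shares of Pcdhga8 were 1.14%, 22.5% and 24.7% and those of Pcdhga10 were 14.4%, 1.36% and 1.30%. For both isoforms the low lines as NSCs were the low lines as astrocytes. The summed gamma-A and gamma-B level differed far less, at 9.50 ± 0.09, 9.84 ± 0.15 and 9.78 ± 0.07 on the log2 scale in the NSCs of the 3 lines and 10.45 ± 0.02, 10.47 ± 0.00 and 10.54 ± 0.07 in their astrocytes.

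**Figure D5:**
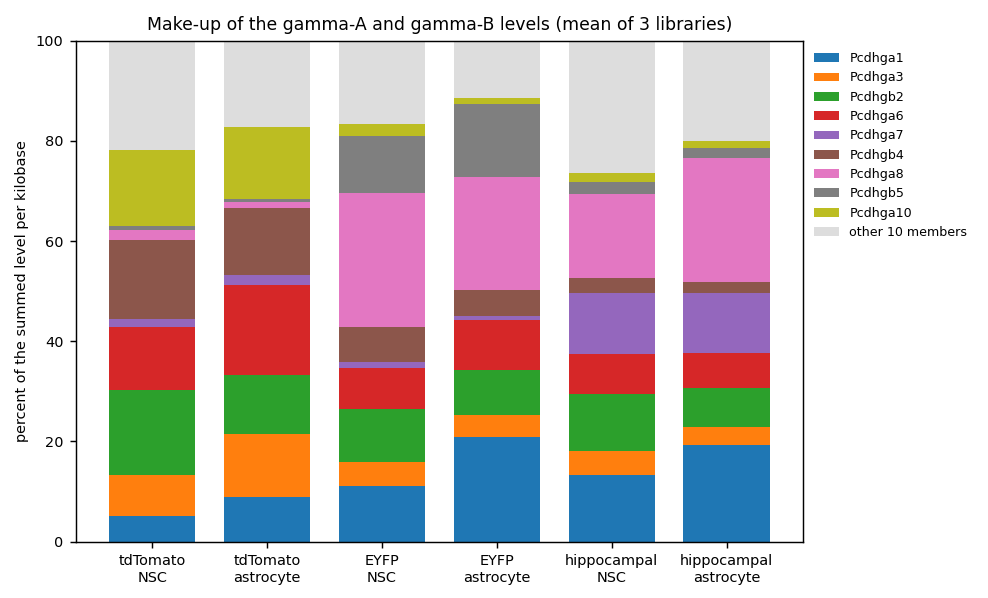
Percent of the summed gamma-A and gamma-B level per kilobase of exon given by each isoform, as the mean of 3 libraries per group. The 9 isoforms with the highest mean share are coloured and the other 10 are grey. Pcdhga8 (pink) takes 26.7% in EYFP NSCs and 2.02% in tdTomato NSCs, and the bars of the fates of a line look more alike than those of different lines.

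The change from NSC to astrocyte itself differed between traced and hippocampal lines for 19 members, with 14 higher and 5 lower in the traced lines (test of the difference between the changes, limma over the 6 groups), where 20.7% and 26.2% of all genes tested were. Of the beta genes, 7 of 21 changed more upward in the traced lines and 0 downward (1 at an unadjusted p under 0.05). Pcdhac2 went from 7.66, 7.71 and 7.81 to 7.57, 7.59 and 7.39 in the hippocampal line. In the tdTomato line it went from 8.13, 7.84 and 7.93 to 9.27, 9.37 and 9.29, and in the EYFP line from 8.38, 8.21 and 8.22 to 9.23, 9.38 and 8.66. The difference between the changes was 1.29 ± 0.16 (adjusted p = 4.4e-06). Pcdha4 (1.03 ± 0.19, adjusted p = 0.0002) and Pcdhb11 (0.70 ± 0.14, adjusted p = 0.0005) also changed more upward in the traced lines. Pcdhgb8 (-1.23 ± 0.27, adjusted p = 0.0012), Pcdhga8 (-1.08 ± 0.16, adjusted p = 3.4e-05) and Pcdhga11 (-1.02 ± 0.37, adjusted p = 0.031) did so in the hippocampal line. The call for Pcdhga11 was lost when single libraries were left out, with the highest adjusted p (0.12) and the smallest difference (-0.66) without hippocampal astrocyte replicate 3. In 7 of the 50 members the astrocyte libraries all lay above the NSC libraries in 1 line and all below them in another. The share of all genes tested was 7.15%, and the count was not tested.

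Genes known to act on promoter choice in these clusters were read beside the members. Of 22 such genes, 4 rose and 14 fell from NSC to astrocyte, with a median difference of -0.31. For this and each further list, the shares of all genes tested in the same comparison were 41.3% higher and 41.1% lower. Uhrf1, which recruits the maintenance DNA methyltransferase, was lower by 4.27 ± 0.09 on the log2 scale (adjusted p = 1.8e-17), and that methyltransferase, Dnmt1, by 1.53 ± 0.07 (adjusted p = 1.2e-12). The cohesin subunit Smc1a was lower by 0.84 ± 0.03 (adjusted p = 3.6e-14) and Tet1, which oxidises methylated cytosine, by 0.78 ± 0.14 (adjusted p = 5.8e-05). Between tdTomato and EYFP astrocytes, where 5.32% of all genes tested were higher and 5.56% lower, 0 of the 22 passed (limma, 0 at an unadjusted p under 0.05 as well), a count that so short a list can give at those shares. In NSCs of these lines, 4 of the 22 were higher in the tdTomato line and 2 lower (limma, 11 at an unadjusted p under 0.05). There, 17.3% and 14.9% of all genes tested were higher and lower.

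Of 17 proteases and partners of the proteins that were tested, 6 rose and 6 fell, near the shares of all genes. Psen2, a catalytic subunit of gamma-secretase, rose by 1.57 ± 0.05 (adjusted p = 2.7e-15). The kinases Fyn and Ptk2, which act in signalling from cell contacts, were lower by 0.72 ± 0.08 (adjusted p = 4.1e-07) and 0.62 ± 0.05 (adjusted p = 4.7e-09). Cyfip2, of the WAVE complex that regulates actin, was lower by 0.71 ± 0.08 (adjusted p = 2.6e-07).

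Of 11 protocadherins outside the clusters that were tested, 3 rose and 7 fell in astrocytes, with a median of -0.87, led by Pcdh15, known from the tip links of hair cells (-2.26 ± 0.25, adjusted p = 1.3e-07), Cdhr1 (-1.89 ± 0.13, adjusted p = 2e-10), Pcdh9 (-1.51 ± 0.08, adjusted p = 6.6e-12) and Pcdh18 (-1.15 ± 0.08, adjusted p = 1.3e-10). The large cadherins of planar polarity and growth control gave 4 rises and 2 falls of 8. Fat3 (1.19), Celsr1 (0.85) and Celsr2 (0.71) rose and Dchs1 (-0.80) fell. The lines differed in size of change. The mean of Fat3 went from 10.58 to 12.54 in the tdTomato, 11.03 to 12.35 in the EYFP and 10.69 to 10.99 in the hippocampal line. That of Celsr2 went from 11.1 to 11.32, 11.14 to 11.45 and 11.21 to 12.8 in the same order. Of 8 classical cadherins 2 rose and 4 fell, among them Cdh11 (1.01 over all lines, 1.56 and 1.40 in the tdTomato and EYFP lines and 0.07 with an adjusted p of 0.40 in the hippocampal line), Cdh22 (0.69), Cdh4 (-1.23) and Cdh20 (-0.70). Between tdTomato and EYFP astrocytes, where 5.32% and 5.56% of all genes tested were higher and lower, 0 of 8 large and 0 of 8 classical cadherins passed (limma, 1 and 2 at an unadjusted p under 0.05). Lists of 8 are too short to tell this from the background. Of the protocadherins outside the clusters 2 were higher and 1 lower in tdTomato astrocytes. In NSCs of these lines, 17.3% and 14.9% of all genes tested were higher and lower in the tdTomato line. There, 4 of the 8 large cadherins were higher and 2 lower, and 2 of the 8 classical cadherins were higher and 3 lower. Of the 11 protocadherins outside the clusters, 3 were higher and 3 lower.

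Other genes beside, between or inside the clusters, up to 500000 bases from the first or last member, numbered 50 in the table, of which 29 were tested. Some of them overlap members, such as BC037039, which lies on the opposite strand at Pcdhgc3. Pcdh1 is both in this list and in that of protocadherins outside the clusters. From NSC to astrocyte 9 rose and 8 fell, with a median of 0.00, where 41.3% and 41.1% of all genes tested did. Fchsd1 rose by 1.01 ± 0.05 (adjusted p = 2.4e-12). Taf7, a subunit of the general transcription factor TFIID that lies between the beta and gamma clusters, was lower by 0.98 ± 0.10 (adjusted p = 3.3e-08), and Wdr55 by 0.80 ± 0.06 (adjusted p = 4.9e-10). Cd14, a co-receptor for bacterial lipopolysaccharide, was higher over all lines by 1.26 ± 0.56 (adjusted p = 0.047), with no call in the tdTomato (-0.17) or the EYFP line (-0.51), and reached 8.04 to 8.41 in hippocampal astrocytes against 2.68 to 3.93 in the other libraries. Between tdTomato and EYFP astrocytes 0 of the 29 passed (limma, 4 at an unadjusted p under 0.05), where 5.32% and 5.56% of all genes tested did. In NSCs of these lines 3 of the 29 were higher in the tdTomato line and 5 lower, where 17.3% and 14.9% of all genes tested were. Nothing is read from so few genes.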

How the data were processed

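The series measured polyadenylated RNA of 18 mouse libraries, 3 per group. Per the labels and methods, the authors trimmed single-end reads (Trimmomatic 0.36), aligned them to GRCm38 with STAR 2.5.2, divided them among Ensembl genes with RSEM 1.3.0, which gives a read shared by isoforms to several genes in part, and normalized the estimates with DESeq2 1.18.1. The labels and the paper name different library kits, and whether counting used strand is not given in the sources used here. The authors deposited log2 values for 27997 genes, of which 29.4% were negative. Their form is that of a regularized log, a transform that pulls weak genes towards their mean, but the one used is not named. Depth is unknown, so no counting error could be given.

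Symbols came from GENCODE and the supplied name table (27887 genes), and exon lengths and 75-base windows from GENCODE models on GRCm38. Levels per kilobase are the log2 value less the log2 of the exon length in kilobases, and sums and shares were taken on the linear scale. No library of a group repeated another: the median absolute difference over genes was 0.0706 to 0.12.

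Tests were made with limma 3.58.1 (R 4.3.3) with a variance trend, on the deposited values of 14369 genes with a mean of at least 10 on the linear scale over all libraries, and p-values were adjusted by Benjamini and Hochberg's method (threshold 0.05). This filter differs from that of an earlier analysis of these data. Fates were compared over all lines with the line as covariate and within each line, traced with hippocampal libraries 6 against 3, tdTomato with EYFP libraries 3 against 3, and changes as an interaction. The scripts were tested on simulated data. The members, the gene lists and the tests were chosen with earlier results of these data known. Named were the C-type members, the 3 members highest per kilobase in each cluster, in each comparison up to 3 rises and 3 falls past the threshold without overlap (6 and 6 for fates over all lines), and up to 4 genes of each other list by size of change. Others named were chosen after their values were seen. Alternatives were other filters, a pseudocount of 10, median centring, quantile normalization, no trend, a model of 6 groups, a replicate block, leaving out each library, and the longest transcript as length.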

Additional observations from a re-analysis of the deposited data

Results flagged for a closer look

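The change from NSC to astrocyte differed between traced and hippocampal lines in a test of that difference (limma) for 6 named members. It was more upward in the traced lines for Pcdhac2 (1.29 on the log2 scale), Pcdha4 (1.03) and Pcdhb11 (0.70), and more upward in the hippocampal line for Pcdhgb8 (-1.23), Pcdhga8 (-1.08) and Pcdhga11 (-1.02).

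For 7 of the 50 members tested and for Pcdha3, the astrocyte libraries all lay above the NSC libraries in a line and all below them in another. The share of all genes tested was 7.15%, and these differences between lines were not tested one against one. Not all of the changes passed within their line: the falls of Pcdha4 and Pcdhb6 in the tdTomato line and of Pcdhac2 in the hippocampal line did not. Between NSCs and astrocytes, the tdTomato and EYFP lines went apart for ENSMUSG00000102206 (-1.05 and 0.60), Pcdha4 (-0.12 and 0.55), Pcdhb6 (-0.14 and 0.30), Pcdhgb6 (0.44 and -0.58) and Pcdha3 (-0.86 and 0.65), the last of which lay below the filter on low values. The EYFP and hippocampal lines went apart for Pcdhgc5 (-0.48 and 0.29), Pcdhgb8 (-0.41 and 1.01) and Pcdha4 (0.55 and -0.82). Pcdhac2 moved up in the tdTomato (1.34) and EYFP (0.82) lines and down in the hippocampal line (-0.21). Groups of 3 libraries were not searched for single outlying libraries.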

How the results depend on the processing

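Of 9 counts of members, 8 stayed within 1.5 times under every alternative. The number that differed between traced and hippocampal NSCs, 14 of 50, was 9 with a filter of 100 on the linear scale, which left 35 members to test, and 30 with the model of 6 groups. Leaving out single libraries gave 36 to 39 members changed between fates over all lines, 35 to 39 in the tdTomato, 35 to 38 in the EYFP and 30 to 34 in the hippocampal line. For traced against hippocampal libraries it gave 11 to 16 in NSCs and 19 to 27 in astrocytes, for tdTomato against EYFP libraries 26 to 28 and 24 to 26, and for the difference between changes 13 to 21. The main tests did not pair libraries by replicate number. Deviations of same-numbered libraries correlated at -0.018 on average between the fates of a line (9 pairs). Between lines within a fate the mean was 0.130 and every pair was positive (18 pairs, 0.00669 to 0.334), so same-numbered libraries of a fate varied together to some degree. Libraries of different numbers gave means of 0.00903 and -0.0651, and reached 0.0956 and 0.0906. Pairing was not used in the main tests because the lowest same-numbered pairs lay under the 0.1 asked of every pair. Which of the 3 passages a number stands for is not stated, and counts with a replicate block are given below. Leaving out the 2 isoforms that passed the filter through 1 line, an alternative chosen after seeing the data, gave 28 and 25 of 48 for tdTomato against EYFP libraries in NSCs and astrocytes. With a replicate block the counts were 39 over all lines, 39, 38 and 39 within the tdTomato, EYFP and hippocampal lines, 13 and 22 for traced against hippocampal libraries, 31 and 35 for tdTomato against EYFP libraries and 19 for the difference between changes. Of 1223 alternatives for 72 named values, 1157 kept direction and side of the threshold, 65 kept the direction and lost the call, 1 moved and 0 reversed. The value that moved was the mean share of Pcdhgc3 in the gamma level, 67.4%, which was 68.8% with the longest transcript as length. Median centring moved the split of all genes tested from 1499 higher and 1214 lower to 1243 and 1539 for traced against hippocampal NSCs, and from 2981 and 3766 to 3698 and 3067 for the difference between changes. The members' splits there were 4 and 10 against 3 and 10, and 14 and 5 against 16 and 5. Quantile normalization gave more falls between fates, with 33 members higher and 5 lower in astrocytes over all lines, against 37 and 2. Within the tdTomato, EYFP and hippocampal lines it gave 33 and 7, 32 and 6, and 27 and 6. Without counts, the depth behind weak isoforms could not be given.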
